A study of Mus musculus with 14 samples.

Results

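The nuclear genes of the oxidative phosphorylation complexes were followed in mouse liver over 3 diets. Mitochondria pass electrons from NADH through complex I, coenzyme Q, complex III, cytochrome c and complex IV to oxygen, and complex V uses the proton gradient built on the way to make ATP. Most subunits are encoded in the nucleus and imported, a few core subunits are encoded in mitochondrial DNA, and the liver uses the pathway to burn fat and to power glucose and urea synthesis. Members were chosen by name alone: probes whose gene name in the scanner files, or whose current symbol, begins with Ndufa, Ndufb, Ndufc, Ndufs, Ndufv, Uqcr, Cox4 to Cox8 or Atp5. This gave 99 of 41174 probes and 78 of 36096 genes, with the brightest probe kept for each gene. By complex, 31 members belong to complex I, 8 to complex III, 16 to complex IV and 17 to complex V, and 6 carry such a name but are assembly factors or act on supercomplexes (Ndufaf1, Ndufaf3, Ndufaf4, Ndufaf5, Ndufaf7 and Cox7a2l). All 78 passed the filter on dim probes, and each was well above background on all 14 arrays and saturated on none.

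All animals were male C57BL/6 mice, 1 year old and fed freely, and each array held RNA of 1 liver. The HCR group (n = 4) ate a high-calorie AIN-93G diet, with 60% of its calories as fat, that also contained 0.04% resveratrol, a plant polyphenol. The HC group (n = 5) ate the same high-calorie diet without resveratrol, and the SD group (n = 5) ate the AIN-93G standard diet. Each liver was labelled with Cy3 and hybridised together with a Cy5-labelled pool of 5 standard-diet livers, so every value below is a log2 ratio of the animal over that pool, and a difference between groups is a difference of such ratios. A bulk liver array cannot tell fewer cells of a type from less RNA per cell. The design text calls the animals replicates, and p-values below measure the spread between these arrays. Feature Extraction, the scanner software, processed the arrays on 2 days. Day 1 held all 4 HCR arrays, HC replicates 1 and 4 and SD replicates 1, 3 and 4, and day 2 held the others.

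The 32675 genes tested were compared with limma, and a gene was called where its p, adjusted over all of them by the Benjamini-Hochberg method, was under 0.05. In HC against SD livers 9.44% of all genes were called, 5.37% higher and 4.06% lower. In HCR against HC livers 5.37% were called, 3.15% higher and 2.22% lower, and in HCR against SD livers 0.214% were called. Of 10 listed hepatocyte markers, 8 were among the genes tested. The filter on dim probes kept genes with a Cy3 signal well above background on 4 or more arrays. Whether the other listed markers failed it or had no matched probe was not examined. HCR replicate 3 and SD replicate 2 stood apart for the members. HCR replicate 3 was the lowest of the 14 arrays for 37 of 78 members and SD replicate 2 for 24. SD replicate 2 was also the highest array for 14 members, and HC replicate 3 was the highest for 21. The median member sat at -0.25 on HCR replicate 3, against -0.074 to -0.022 on the other HCR arrays, -0.060 to 0.10 on the HC arrays and -0.049 to 0.037 on the SD arrays, whereas the median over all genes lay between -0.014 and -0.0032 on every array.

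**Figure D1:**
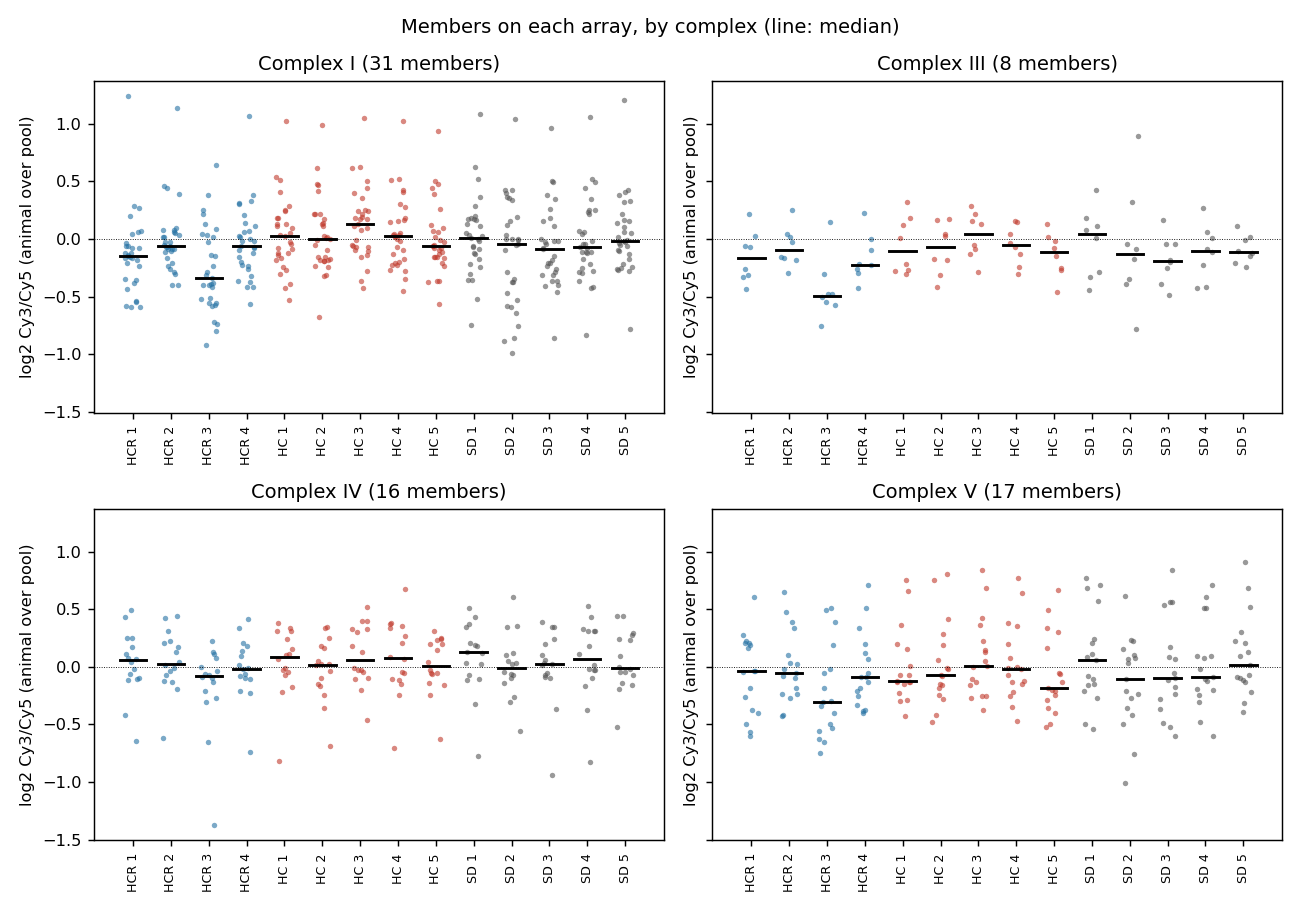
Log2 Cy3/Cy5 ratio (vertical axis, animal over pool) of each member (points) on each of the 14 arrays (horizontal axis, HCR, HC and SD by replicate), in 1 panel per complex, with the median of the panel's members as a line. HCR replicate 3 has the lowest median in the panels of complexes I, III, IV and V, and the other arrays overlap.

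The high-calorie diet was compared with the standard diet first. Expression of the subunits differed little between HC and SD livers. Of 78 members, 2 rose in HC livers (Ndufa7 and Ndufs1, both in complex I), none fell and 76 did not pass the test, a share of 2.56% called beside 9.44% of all genes tested. Among the 9007 other genes in the members' intensity range, 8.78% were called higher and 8.04% lower. The median member differed by 0.031 on the log2 scale, beside -0.0022 over all genes tested, and 46 differences were positive (49.2% of all genes) and 32 negative. At an unadjusted p under 0.05, 13 members were higher and 3 lower. Of all 32675 genes tested, 4672 were higher and 4351 lower at that p, 27.6% in either direction. The 95% intervals of 75 members lay inside a 1.5-fold change in either direction. The log2 difference of the members ran from -0.18 (Uqcrq, a small subunit of complex III) to 0.46 (Ndufs1).

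Ndufa7, an accessory subunit of the arm of complex I that reaches into the matrix, was the clearest of the complex I members. Its log2 ratio was 0.54, 0.48, 0.50, 0.52 and 0.48 in HC livers, against 0.28, 0.19, 0.12, 0.25 and 0.33 in SD livers. All HC livers lay above all SD livers. The difference was 0.27 ± 0.045 (SE), a 1.21-fold rise in HC livers (limma adjusted p = 0.00268). A second, dimmer Ndufa7 probe gave 0.28 (adjusted p = 0.0472). Within extraction days the Ndufa7 difference was 0.32 on day 1 (adjusted p = 0.0564) and 0.23 on day 2 (adjusted p = 0.31). The brighter probe has no gene symbol in the scanner files and was matched to Ndufa7 through its accession list.

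Ndufs1, a core iron-sulfur subunit of the NADH-oxidising module of complex I, also rose. Its log2 ratio was -0.12, -0.053, -0.14, 0.016 and -0.060 in HC livers, against -0.52, -0.985, -0.46, -0.42 and -0.26 in SD livers. The groups did not overlap, and SD replicate 2 was the lowest. The difference was 0.46 ± 0.11 (SE), 1.37-fold, with an adjusted p of 0.0232 from limma. The Ndufs1 call was lost without HC replicate 2 (0.45, adjusted p = 0.051), HC replicate 4 (0.435, adjusted p = 0.0546) or HC replicate 5 (0.45, adjusted p = 0.0572), and with array brightness as a covariate (0.375, adjusted p = 0.128). The share of probes above background was 83.5% to 91.8% on HC arrays and 77.8% to 88.2% on SD arrays. Within extraction days Ndufs1 differed by 0.415 on day 1 (adjusted p = 0.0908) and by 0.54 on day 2 (adjusted p = 0.446).

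The other 29 complex I members did not pass. Members whose HC and SD livers did not overlap numbered 5, all with HC above. Over all genes 10.3% did not overlap, 5.17% with HC above and 5.16% with HC below. Besides Ndufa7 and Ndufs1 these were Ndufc2 (a small membrane-arm subunit), Ndufs4 (an accessory subunit whose loss causes Leigh syndrome in humans) and Uqcr10. Ndufc2, Ndufs4 and some other members with values below are named because of those values. Ndufs4 had log2 ratios of -0.18, -0.19, -0.11, -0.20 and -0.15 in HC livers, against -0.36, -0.88, -0.40, -0.42 and -0.22 in SD livers. Its difference of 0.29 ± 0.11 (SE) did not pass (adjusted p = 0.108). Ndufs7, which carries the iron-sulfur cluster next to the quinone site, was the lowest complex I difference at -0.16 ± 0.057 (SE) without passing (limma adjusted p = 0.0861).

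No member of complexes III, IV or V was called in HC against SD livers. Uqcr10, a small complex III subunit, had log2 ratios of 0.183, 0.17, 0.221, 0.145 and 0.135 in HC livers, against 0.078, -0.083, -0.20, -0.12 and 0.018 in SD livers. All HC values lay above all SD values, yet the adjusted p of its difference, 0.23 ± 0.088 (SE), was 0.108. In complex V the largest difference belonged to Atp5pb, subunit b of the peripheral stalk that holds the catalytic head still, with 0.35 ± 0.12 (SE, adjusted p = 0.0819). Its SD values ran from -1.01 to -0.13 and its HC values from -0.25 to -0.072, so the groups overlapped through SD replicate 5, the highest SD array. Dimmer Atp5pb probes gave -0.0055 and 0.47, neither called, so the probes of this gene differed. In complex IV the smallest p belonged to Cox6b1, a subunit on the face where cytochrome c docks, at 0.17 ± 0.077 (SE, adjusted p = 0.178). Atp5a1 and Atp5b, the catalytic head subunits, differed by 0.0011 and -0.0083 on their brightest probes. A second, dimmer probe of each gave 0.17 and 0.21, neither called, so the probes of these genes differed. Among the assembly factors the smallest p was that of Ndufaf1, a complex I assembly factor (0.26 ± 0.12, SE, adjusted p = 0.164).

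The median differences by complex were 0.078 for complex I, 0.014 for complex III, -0.0099 for complex IV and 0.0011 for complex V. These values depend on the correction for intensity. Members were bright, with a median average log2 intensity of 11.8 beside 7.36 over all genes tested. With each array centred on its median in place of loess, 17 members were called higher. That is 21.8%, beside 18.2% of the 9007 other genes in the members' intensity range and 7.33% of all genes. The member median became 0.37, beside 0.19 over those 9007 genes and 0.0079 over all genes. Under loess those 9007 genes had a median of -0.0031.

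Resveratrol on the high-calorie diet was compared next. Most members were lower in HCR than in HC livers, by small amounts. Of 78 members, 2 fell (Ndufa3 and Ndufa7), none rose and 76 did not pass, and 64 of the 78 differences were negative. That is 82.1%, beside 52.7% of all genes and 53.6% of the 9007 genes of like intensity, and positive differences made up 47.3% of all genes. By count of calls, 2.56% of the members fell beside 2.22% of all genes, a share near the background. Of those 9007 genes 3.43% were called lower and 6.17% higher. The median member differed by -0.10, beside -0.0068 over all genes. The differences ran from -0.34 (Uqcr10) to 0.087 (Ndufaf7, a methyltransferase that acts in complex I assembly), and 77 intervals lay inside a 1.5-fold change. At an unadjusted p under 0.05, 19 members were lower and none higher. Of all 32675 genes tested, 3608 were lower and 3635 higher at that p, 22.2% in either direction.

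HCR replicate 3 carried part of that shift. Without it the median member differed by -0.058, 53 of 78 differences were negative and no member was called. Its share of probes above background, 84.3%, lay between those of the other HCR arrays (81.9% to 92.4%). The median was -0.11 within extraction day 1, the only day that held both groups, where none was called and 69 of 78 differences were negative. None was called with extraction day as a block. Slide numbers in the scanner files fell into 2 series, split at their widest gap, with 3 of 4 HCR arrays, 2 of 5 HC arrays and no SD array in series 1, and none was called with slide series as a block.

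Complex I had the lowest median, -0.17 with 28 of its 31 differences negative, beside -0.12 for complex III, -0.097 for complex V and -0.059 for complex IV. In complex I the negative differences ran through the NADH-oxidising module (7 of 8 members), the quinone module (5 of 5) and the membrane arm (15 of 16), a grouping made after the values were seen.

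Ndufa3, an accessory subunit of the membrane arm, had log2 ratios of -0.58, -0.29, -0.56 and -0.37 in HCR livers, against -0.16, -0.16, -0.059, -0.23 and -0.23 in HC livers. Every HCR liver lay below every HC liver. The difference was -0.28 ± 0.062 (SE), 0.824-fold (limma adjusted p = 0.0222). The SD livers, at -0.37 to -0.22, overlapped both groups. The call was lost without HCR replicate 3 (-0.24, adjusted p = 0.0635), HCR replicate 1 (-0.24, adjusted p = 0.0856) or HC replicate 2 (-0.28, adjusted p = 0.0536). Within extraction day 1 Ndufa3 differed by -0.25 (adjusted p = 0.217).

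Ndufa7 was the other member to fall and the only one called in both comparisons, which share the HC livers. Its HCR values were 0.29, 0.39, 0.22 and 0.38, all under the 5 HC values given above and overlapping the SD values. The difference from HC was -0.19 ± 0.048 (SE), 0.88-fold (limma adjusted p = 0.0403). The second Ndufa7 probe gave -0.19 and was not called (adjusted p = 0.218). The difference lost its call when any 1 HC array was left out, with values from -0.19 to -0.18 and adjusted p from 0.0679 to 0.0892. It also lost it without HCR replicate 1 (adjusted p = 0.123), HCR replicate 3 (-0.15, adjusted p = 0.113) or SD replicate 4 (adjusted p = 0.0536). Within extraction day 1 it was -0.21 (adjusted p = 0.196).

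The 2 called members are shown with their promoters, because they are the only members that passed the test in HCR against HC livers. The sequences run from 250 bases before to 50 bases after the annotated start, in GRCm38.p6 from RefSeq, 5′ to 3′ on the gene's strand. Motif letters searched on both strands were CCGGAAG (ETS family, to which the mitochondrial regulator GABPA belongs), GCATGCG (part of the NRF1 site), AAGGTCA (half-site of the ERR receptors) and AAGATGG (YY1), and any found is in capitals. Ndufa3 lies at chr7:3617123-3617422 on the plus strand and Ndufa7 at chr17:33824322-33824621, also plus.
Ndufa3: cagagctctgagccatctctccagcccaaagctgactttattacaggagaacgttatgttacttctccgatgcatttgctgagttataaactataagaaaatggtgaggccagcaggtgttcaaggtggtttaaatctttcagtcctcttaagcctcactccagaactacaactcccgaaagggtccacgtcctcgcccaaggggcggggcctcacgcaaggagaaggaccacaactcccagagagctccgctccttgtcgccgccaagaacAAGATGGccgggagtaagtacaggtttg
Ndufa7: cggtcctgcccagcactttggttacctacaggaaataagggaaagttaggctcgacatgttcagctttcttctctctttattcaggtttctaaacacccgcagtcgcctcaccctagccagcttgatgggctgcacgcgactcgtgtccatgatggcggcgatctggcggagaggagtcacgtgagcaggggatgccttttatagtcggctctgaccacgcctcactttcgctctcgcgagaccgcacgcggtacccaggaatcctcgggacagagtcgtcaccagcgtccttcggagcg
Ndufa3 held the AAGATGG letters once, and Ndufa7, for which the first of 2 annotated starts is shown, held none of the 4. Of the 78 members, 65 matched a promoter, and Ndufs1 is named only. Among those 65 members, 21.5% held the ETS letters, 16.9% the NRF1 letters, 10.8% the ERR letters and 15.4% the YY1 letters. Of all 27025 genes with a promoter the shares were 9.93%, 4.01%, 5.38% and 7.28% in that order. A gene counted if any annotated start held the letters, so genes with more starts had more chances. By complex, the ETS letters stood in 2 of 27 complex I members and 6 of 15 complex V members with a promoter. These matches describe letters in a window and no binding.

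Members whose HCR livers all lay under all HC livers numbered 7, and none had HCR above. Over all genes 13% did not overlap, 6.16% with HCR below and 6.81% with HCR above. Besides Ndufa3 and Ndufa7 they were Ndufa2, Ndufs4, Ndufv1 (the subunit that binds NADH and flavin), Uqcr10 and Atp5pb. Ndufv1 had log2 ratios of 0.268, 0.464, 0.0901 and 0.303 in HCR livers, against 0.513, 0.473, 0.625, 0.51 and 0.505 in HC livers. Its difference was -0.24 ± 0.071 (SE), which did not pass (adjusted p = 0.0618). Ndufs4 had -0.59, -0.21, -0.73 and -0.38 in HCR livers, all under the HC values of -0.20 to -0.11 given above (difference -0.31 ± 0.12, SE, adjusted p = 0.138).

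In complex III, Uqcr10 had the largest member difference, -0.34 ± 0.094 (SE), with an adjusted p of 0.0513 from limma. Its HCR values were -0.0734, 0.0423, -0.545 and -0.0914, against the HC values of 0.135 to 0.221, and replicate 3 was the lowest. Uqcrc1, a core subunit, differed by -0.27 ± 0.088 (SE, adjusted p = 0.0883). In complex IV the smallest p was that of Cox7a1, the heart and muscle isoform of subunit 7a. Its log2 ratio was -0.022, 0.17, -0.13 and 0.095 in HCR livers, against 0.34, 0.16, 0.39, 0.34 and 0.31 in HC livers. HCR replicate 2 overlapped HC replicate 2, and the difference of -0.28 ± 0.083 (SE) did not pass (adjusted p = 0.0653). In complex V the smallest p was that of Atp5k, subunit e, at -0.15 ± 0.059 (SE, adjusted p = 0.146). Atp5a1 and Atp5b differed by 0.050 and 0.024 on their brightest probes. Their dimmer probes gave -0.26 and -0.15, neither called.

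**Figure D2:**
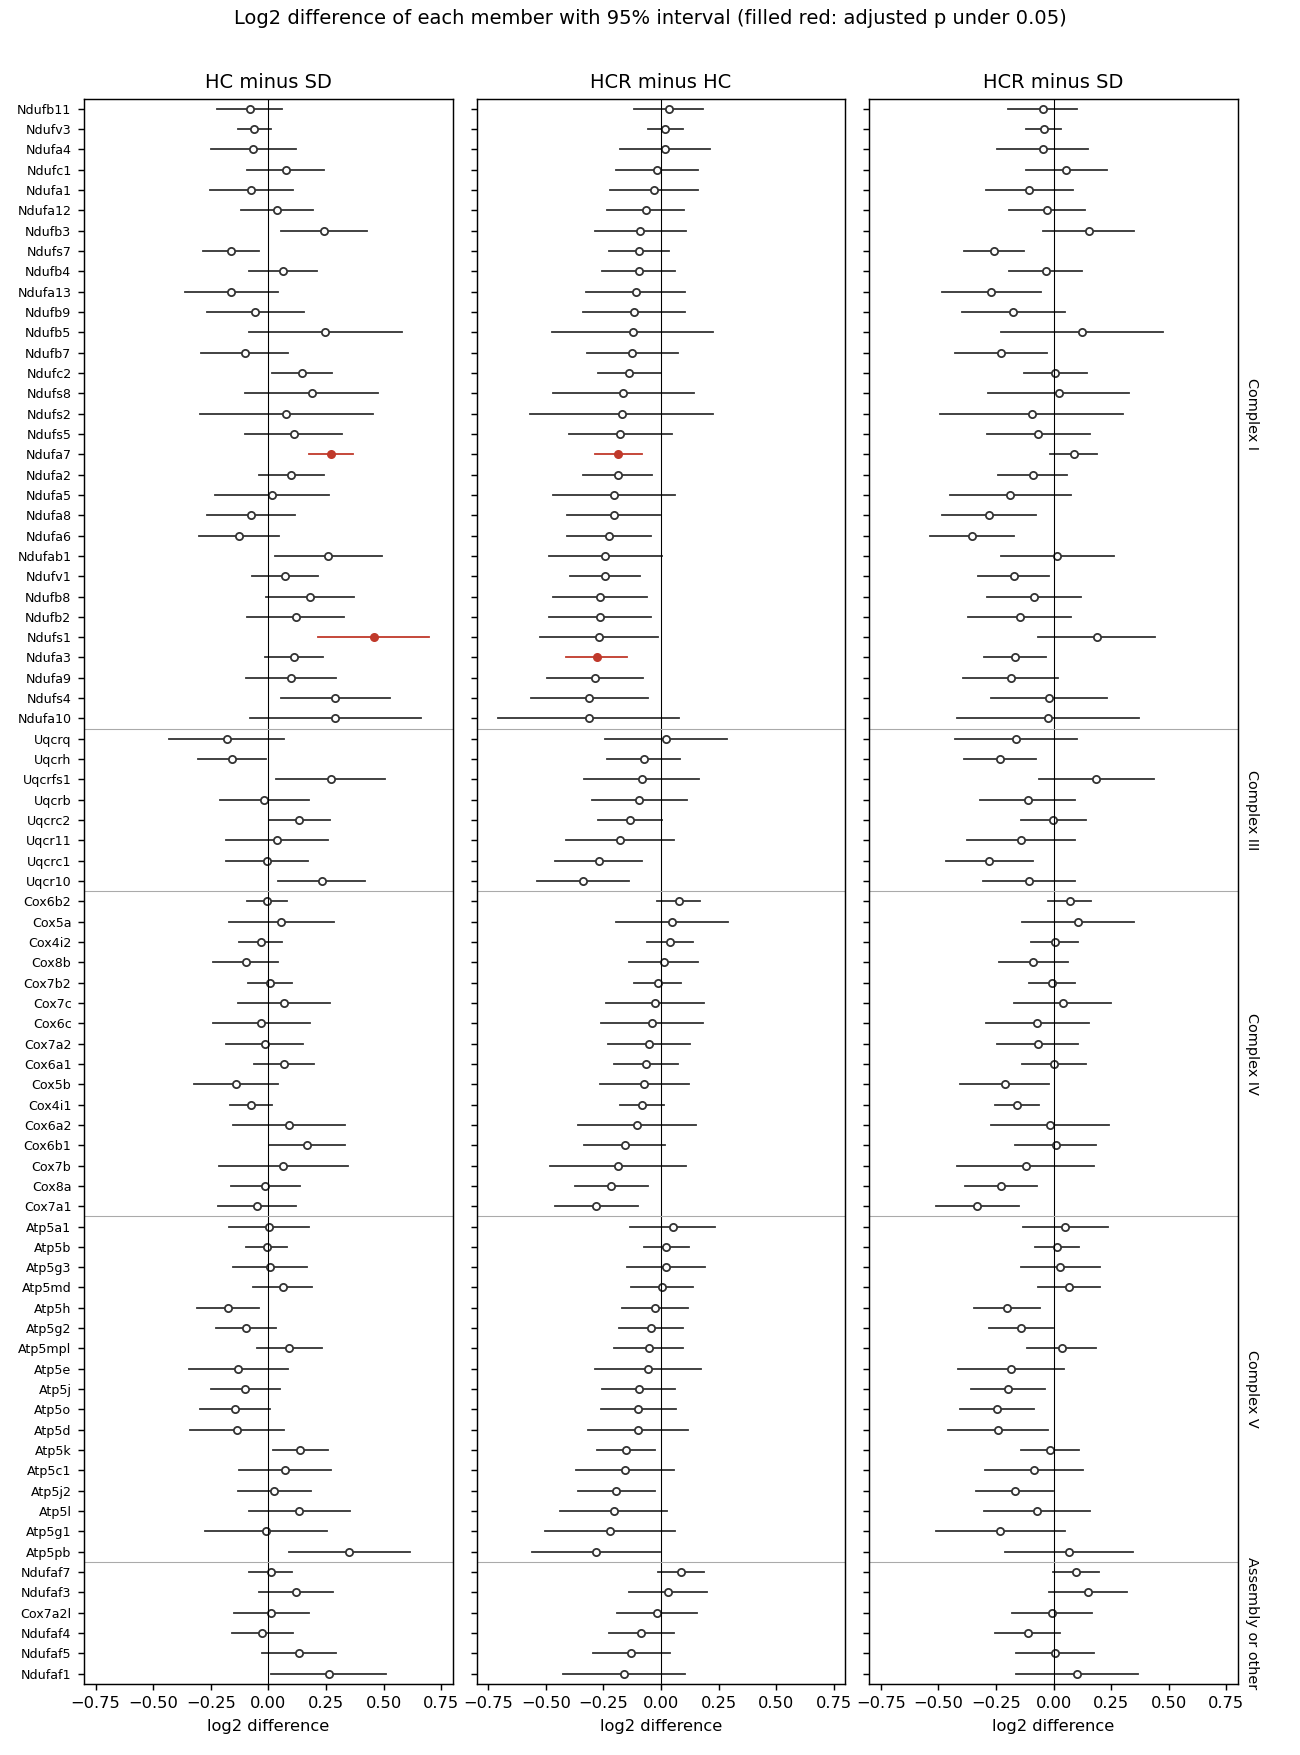
Log2 difference (horizontal axis) with its 95% interval of each of the 78 members (rows, by complex), for HC minus SD, HCR minus HC and HCR minus SD livers. Filled red points are the calls: Ndufa7 and Ndufs1 in HC minus SD, Ndufa3 and Ndufa7 in HCR minus HC. In HCR minus HC 64 of 78 points lie left of 0.

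**Figure D3:**
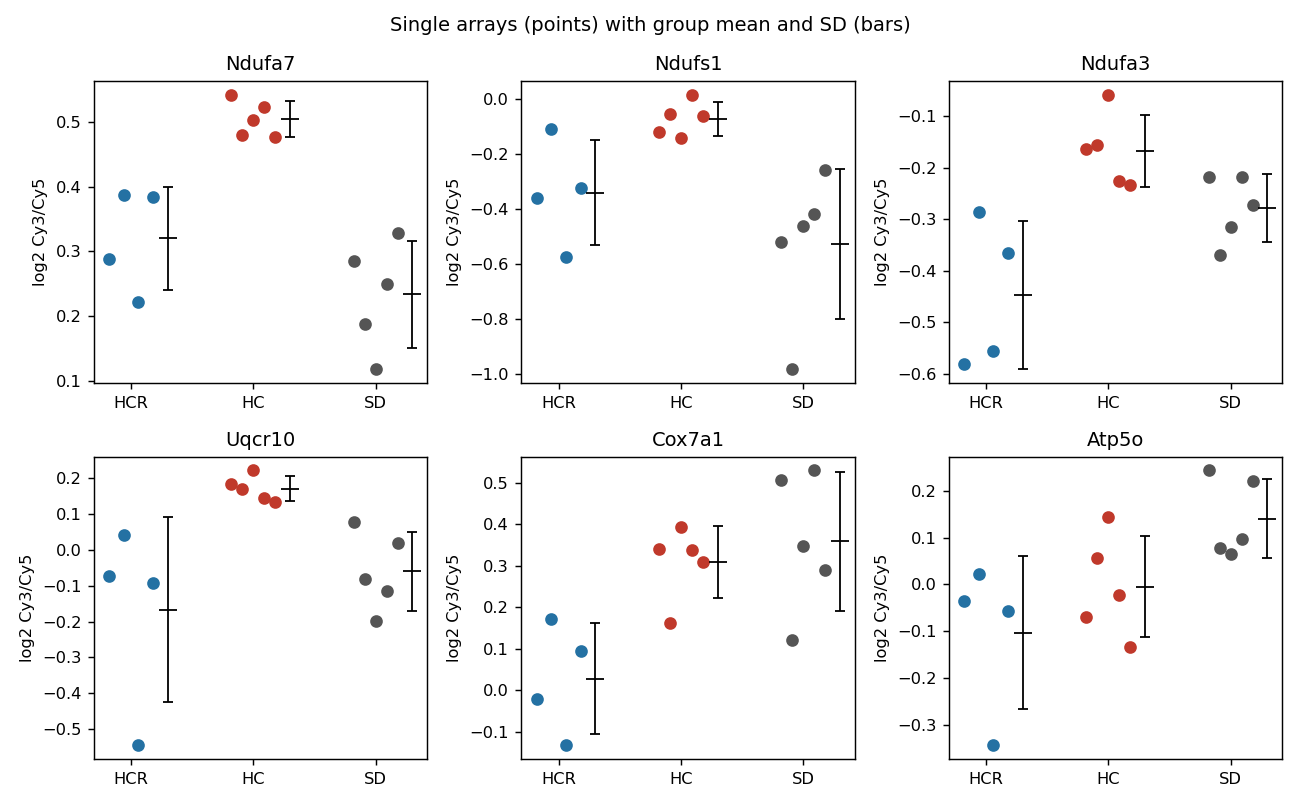
Log2 Cy3/Cy5 ratio (vertical axis) of 6 named members on single arrays (points) for HCR, HC and SD livers, with group mean and SD (bars). All 5 HC points of Ndufa7 lie above all 4 HCR and all 5 SD points.

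Livers of resveratrol-fed mice were also set against standard-diet livers. None of the 78 members was called (0 beside 0.214% of all genes, limma). At an unadjusted p under 0.05, 19 were lower and none higher. Of all 32675 genes tested, 1858 were lower and 1612 higher at that p, 10.6% in either direction. All 78 intervals of the members lay inside a 1.5-fold change. The median member differed by -0.069, beside 0.00043 over all genes, and 53 of 78 differences were negative (positive ones made up 50.2% of all genes). The median by complex was -0.067 for complex I, -0.13 for complex III, -0.042 for complex IV and -0.086 for complex V. Without HCR replicate 3 the member median was 0.0017, and with median centring it was 0.082, so its sign was not stable. With median centring the 9007 other genes of like intensity had a median of 0.114. Of those genes 12.5% were negative, beside 28.2% of the members. With slide series as a block the member median was -0.027, an estimate that rests on few arrays, since all 5 SD arrays and only 1 HCR array were in series 2.

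The lowest value was that of Ndufa6, a subunit that docks the acyl carrier protein on complex I, at -0.35 ± 0.086 (SE, adjusted p = 0.125). Its HCR values were -0.59, -0.30, -0.80 and -0.42, against -0.083, -0.29, -0.31, -0.12 and -0.057 in SD livers, and HCR replicate 2 overlapped the SD group. Members whose HCR livers all lay under all SD livers numbered 4 (Ndufa13, Ndufs7, Cox4i1 and Atp5o), and none had HCR above. Over all genes 2.95% did not overlap, 1.86% with HCR below and 1.09% with HCR above. Ndufs7 had -0.162, -0.0837, -0.135 and -0.154 in HCR livers, against 0.18, -0.040, 0.19, 0.24 and 0.060 in SD livers (difference -0.26 ± 0.061, SE, adjusted p = 0.116). Atp5o, the stalk subunit that confers sensitivity to oligomycin, had -0.036, 0.023, -0.34 and -0.058 in HCR livers, against 0.24, 0.078, 0.065, 0.096 and 0.22 in SD livers. Its difference was -0.245 ± 0.075 (SE, adjusted p = 0.246). Cox7a1 differed by -0.33 ± 0.083 (SE, adjusted p = 0.145), Uqcrh, the acidic hinge protein of complex III, by -0.23 ± 0.073 (SE, adjusted p = 0.258) and Ndufaf7 by 0.098 ± 0.046 (SE, adjusted p = 0.476).

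Several complex IV subunits exist as tissue isoforms, and none of the 16 complex IV members was called in any comparison. Cox4i1, the general isoform of subunit 4, had 0.25, 0.22, 0.080 and 0.21 in HCR livers, 0.31, 0.25, 0.33, 0.26 and 0.20 in HC livers and 0.34, 0.35, 0.34, 0.43 and 0.28 in SD livers. All HCR values lay below all SD values (difference -0.16 ± 0.044, SE, adjusted p = 0.191). Cox4i2, known as the lung isoform, differed by -0.0345 in HC against SD, 0.0386 in HCR against HC and 0.0042 in HCR against SD livers. Cox6a1 and Cox7a2, the liver-type isoforms, differed by 0.067 and -0.017 in HC against SD livers and by -0.066 and -0.052 in HCR against HC livers. Cox8a differed by -0.013 in HC against SD livers and by -0.215 ± 0.074 (SE, adjusted p = 0.103) in HCR against HC livers. The muscle isoforms Cox6a2 and Cox8b, and the testis isoform Cox6b2, had differences between -0.105 and 0.090 in all 3 comparisons. Cox7b2, a testis isoform named here after its values were seen, differed by 0.0073, -0.015 and -0.0079 in HC against SD, HCR against HC and HCR against SD livers. Cox4i2, Cox7b2 and Cox8b were dim, at average log2 intensities of 6.65, 6.89 and 6.93, beside a median of 7.36 over all genes. Their small differences do not show that these transcripts were unchanged. Cox6a2 was higher on HC replicate 4 (0.67) and SD replicate 4 (0.32) than on the other arrays of those groups (at most 0.10 and 0.055). Cox7a2l, a supercomplex assembly factor, differed by 0.012 in HC against SD livers and by -0.018 in HCR against HC livers. Ndufa4, named after complex I but counted with complex IV in later work, averaged 1.02 ± 0.26 in HCR livers, 1.01 ± 0.042 in HC livers and 1.07 ± 0.089 in SD livers (SD, n = 4, 5 and 5).

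The other genes of the pathway were counted in the same way. Of 70 listed genes, 48 were tested, and the 13 genes of the mitochondrial genome were not analysed here. In HC against SD livers 12 of the 48 rose and none fell (beside 5.37% of all genes called higher), with a median difference of 0.15. The count of 12 became 4 with array brightness as a covariate, with Cy3 alone or within extraction day 1, and 0 with the deposited scores or within day 2. With resveratrol, HCR against HC livers, 2 of the 48 fell and none rose, beside 2.22% of all genes called lower, a share near the background, with a median of -0.062. None of the 48 was called lower with median centring, with Cy3 alone, with the deposited scores or within extraction day 1, and 1 was with the replicate block. In HCR against SD livers none was called. The list was chosen with earlier results of these data known. Complex II, which feeds electrons from succinate, had no call among its 4 subunits. Sdhb differed by 0.51 ± 0.26 (SE, adjusted p = 0.218) and Sdhd by 0.39 ± 0.18 (SE, adjusted p = 0.18) in HC against SD livers. Sdhc differed by 0.28 and Sdha by 0.084. SD replicate 2 was the lowest SD array for Sdhb (-1.22, others 0.10 to 0.65) and Sdhd (-0.97, others -0.18 to 0.29). It was also the lowest for Sdhc (0.031, others 0.57 to 0.86), though not for Sdha.

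Among the carriers, Slc25a5, the ADP/ATP carrier, rose by 0.63 ± 0.16 (SE) in HC livers (adjusted p = 0.0255), and its SD values ran from -0.82 to 0.33, with replicate 2 the lowest. Slc25a4, the other ADP/ATP carrier on the list, differed by -0.28 ± 0.091 (SE) and did not pass (adjusted p = 0.0654). Every HC liver (-0.16 to -0.051) lay below every SD liver (-0.033 to 0.55) for Slc25a4. Cycs, cytochrome c, rose by 0.34 ± 0.079 (SE, adjusted p = 0.0186), and Etfdh, which passes electrons of fat oxidation to coenzyme Q, rose by 0.54 ± 0.12 (SE, adjusted p = 0.0157). Atpif1, the inhibitor of ATP synthase, rose by 0.405 ± 0.0875 (SE, adjusted p = 0.0128). Of 26 assembly factors tested, 7 rose: Acad9 (complex I), Ttc19 (complex III), Cox19, Cox20, Coa6 and Taco1 (complex IV) and Atpaf1 (complex V), with differences from 0.18 to 0.55, beside 5.37% of all genes called higher. Of 34 alternatives, Cox20 lost its call in 21 (0.0944 to 0.417), Atpaf1 in 16 (0.0889 to 0.385) and Ttc19 in 11 (0.0185 to 0.723). Acad9 averaged 0.036 ± 0.078 in HC livers and -0.51 ± 0.20 in SD livers (SD, n = 5 each, adjusted p = 0.00226).

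Cox19, a copper-handling protein for complex IV, and Coq7, a hydroxylase of coenzyme Q synthesis, were the 2 genes that rose in HC and fell in HCR livers. Cox19 had 0.17, 0.29, 0.045 and 0.37 in HCR livers, 0.645, 0.62, 0.58, 0.64 and 0.60 in HC livers and 0.28, 0.17, 0.30, 0.32 and 0.41 in SD livers. The HC livers lay above all others. Cox19 differed by 0.32 ± 0.057 (SE, adjusted p = 0.00401) in HC against SD livers and by -0.40 ± 0.061 (SE, adjusted p = 0.00579) in HCR against HC livers. Coq7 had -0.61, -0.094, -0.46 and -0.29 in HCR livers, 0.21, 0.061, 0.081, 0.22 and 0.12 in HC livers and -0.28, -0.73, -0.32, -0.45 and -0.46 in SD livers. Coq7 differed by 0.59 ± 0.095 (SE, adjusted p = 0.00212) and by -0.505 ± 0.10 (SE, adjusted p = 0.0147) in those comparisons, which share the HC livers.

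**Figure D4:**
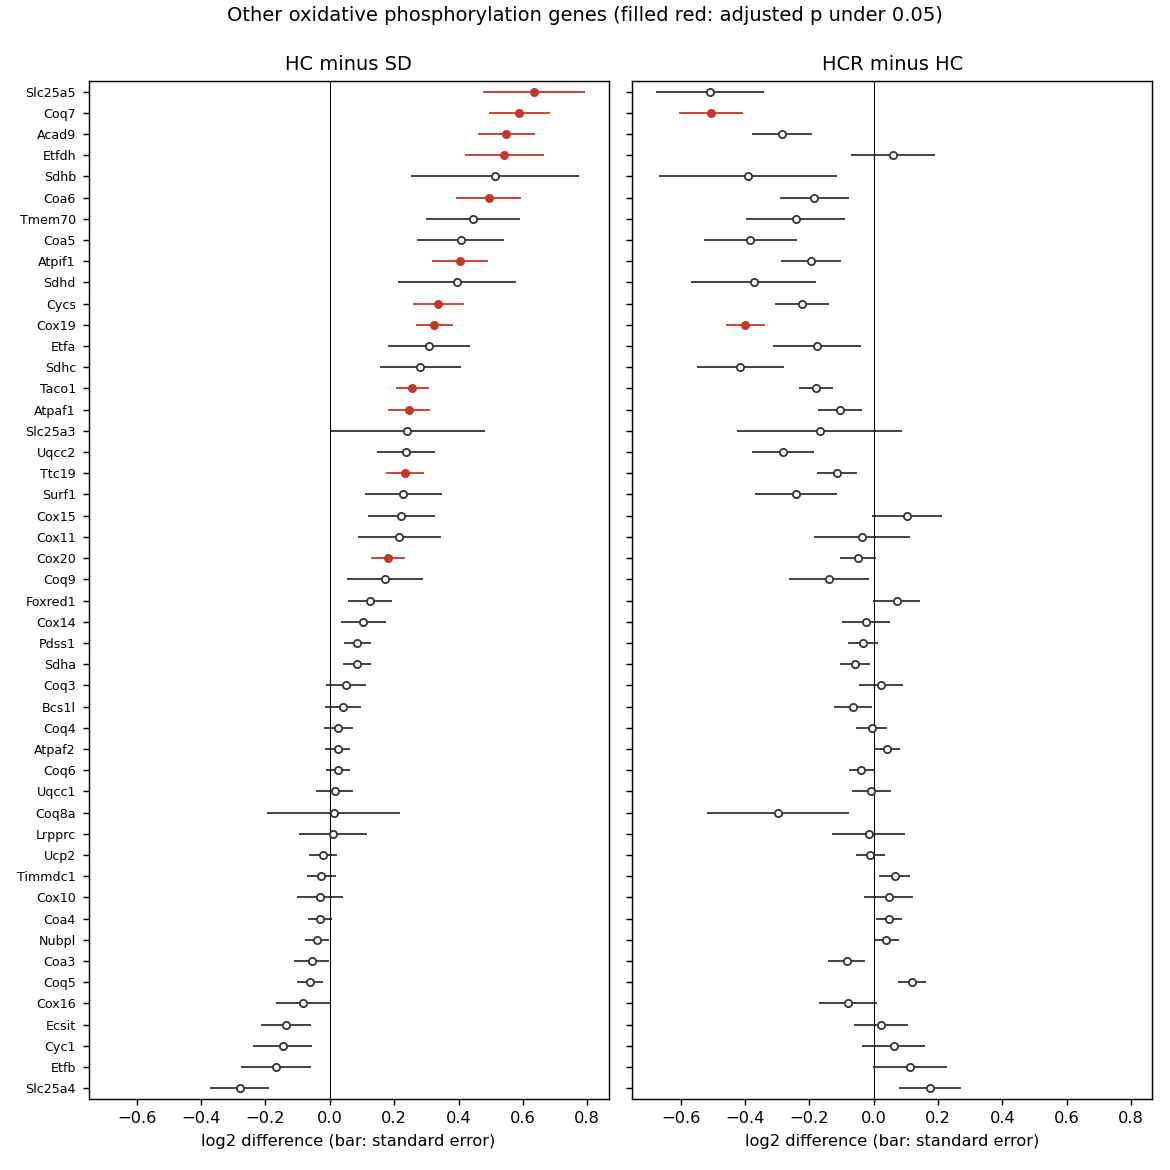
Log2 difference with standard error (horizontal axis) of the 48 other pathway genes (rows), for HC minus SD and HCR minus HC livers. Filled red points are calls, 12 higher in HC livers and 2 lower in HCR livers.

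Cell type markers moved in the same comparisons, and their part in the results was not tested. In HC against SD livers 6 of 7 stellate cell markers rose, beside 5.37% of all genes called higher and 4.06% called lower. Between HCR and HC livers 4 of the 7 fell, beside 2.22% of all genes called lower and 3.15% called higher. The same shares stand beside the counts of the other markers below. The mean of the stellate list lay between -0.087 and 0.15 on HCR arrays, between 0.32 and 0.40 on HC arrays and between -0.090 and 0.10 on SD arrays. Of 8 hepatocyte markers 3 fell in HC against SD livers (Apoa1, Hnf4a and Ahsg) and Ahsg rose in HCR against HC livers. The hepatocyte mean lay between 0.64 and 1.20 on HCR arrays, 0.30 and 0.61 on HC arrays and 0.70 and 0.85 on SD arrays. Of the 7 macrophage markers Csf1r rose in HCR against HC livers. Of the 4 endothelial markers Pecam1 rose in HC against SD livers, and of the 4 adipocyte markers Retn fell in HC against SD livers and rose in HCR against HC livers. None of the 5 muscle markers, the 4 cholangiocyte, 3 red cell or 3 lymphocyte markers was called in any comparison. A ratio to the pool does not show whether a marker is at 0.

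The median member SD was 0.143 in HCR livers, 0.0922 in HC livers and 0.143 in SD livers, beside 0.087, 0.0706 and 0.0871 over all genes. Over the 9007 other genes of like intensity it was 0.0898, 0.064 and 0.103, which is also below that of the members in each group. After subtraction of group means, pairs of members within a complex correlated across the 14 arrays with a mean r of 0.34 in complex V, 0.31 in complex III, 0.27 in complex I and 0.13 in complex IV. Pairs with members of other complexes had a mean r of 0.26, 0.27, 0.24 and 0.18 in that order of complexes. These values are a description, since all pairs share the same arrays.

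**Figure D5:**
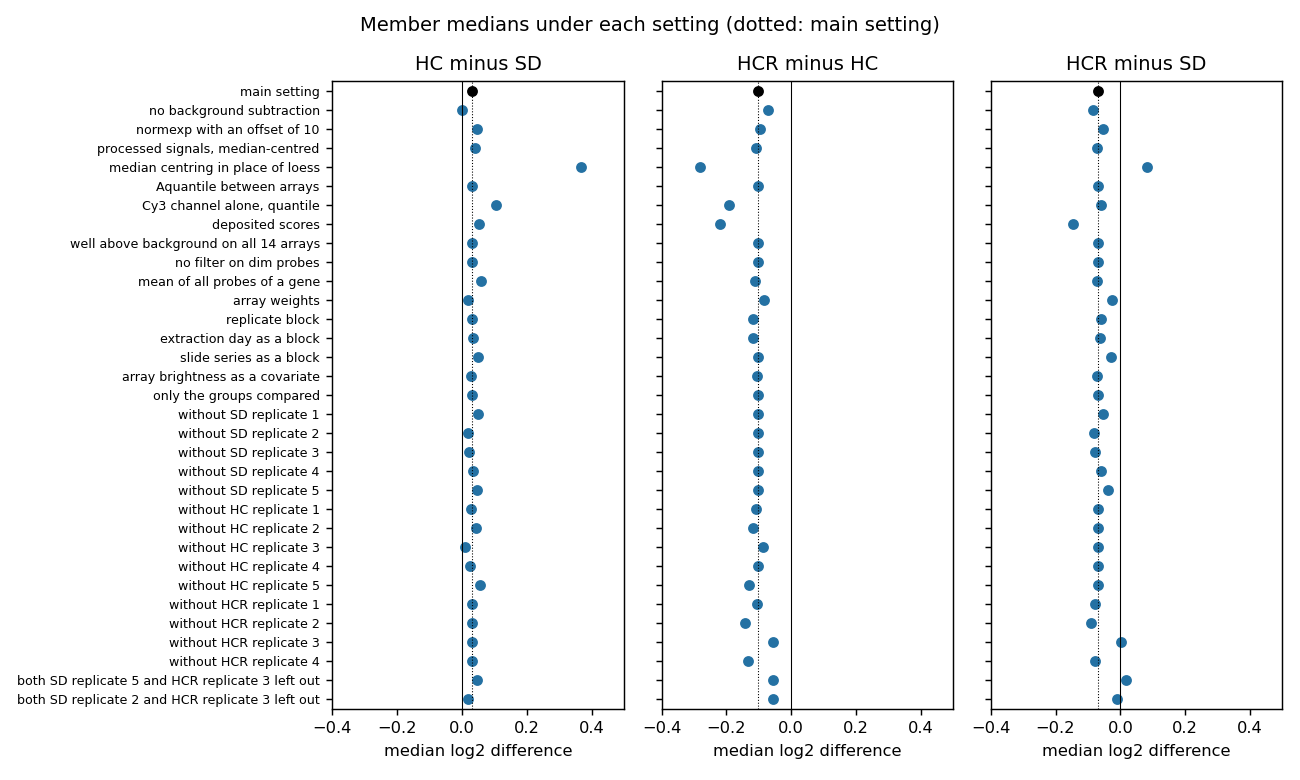
Median log2 difference of the members (horizontal axis) under each processing setting (rows) for HC minus SD, HCR minus HC and HCR minus SD livers. The HCR minus HC median is below 0 in every row, between -0.28 and -0.058, and the HCR minus SD median crosses 0.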

How the data were processed

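Liver RNA of 14 mice was measured on two-colour Agilent arrays. Per the file headers, the deposited intensity values of each spot and its local background came from Feature Extraction 7.5.1. The authors also deposited a table of scores per probe, one column per animal, with the making of the score not given in the sources used here. The log2 ratios were computed here and no log2 values were taken from the authors. Spot intensities were background-corrected (normexp, offset 50), loess-normalised array by array, control spots having weight 0, and expressed as log2 Cy3/Cy5, with 576 outlier spots left out. The brightest probe per gene was kept where Cy3 was well above background on at least 4 arrays, which left 32675 of 36096 genes. Probes were matched to RefSeq symbols (GRCm38.p6) for 20852 of 41174 probes, and the others keep the names in the files. Groups were taken from the labels. A 3-group model was fitted with limma 3.58.1 in R 4.3.3, and p-values, two-sided, were adjusted over all genes within each comparison. The procedure was tested on simulated data. The number of arrays limits the precision. Members and lists were chosen with earlier results of these data known. Named with values are, per comparison and complex, the called members or otherwise the one with the smallest adjusted p, and a list of tissue isoforms of complex IV with Ndufa4 and Cox7a2l. Ndufc2, Ndufs4, Ndufv1, Ndufa2, Ndufa6, Ndufa13, Uqcrc1, Uqcrq, Atp5a1, Atp5b, Cox7b2 and Ndufs7 in HC against SD fall outside that rule and were chosen after their values were seen. Alternatives covered background correction, normalisation, filter, probe choice, weights, blocks and arrays left out.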

Additional observations from a re-analysis of the deposited data

Results flagged for a closer look

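Arrays that lay far from the rest of their group (Dixon's criterion at the 95% level) were found in 4 of 87 groups of values tested, and chance gives about 1 in 20. Cox6a2, the muscle isoform of subunit 6a, was highest on HC replicate 4 at 0.674, with the next HC array at 0.104. Cox6a2 was also highest on SD replicate 4, at 0.324, with the next SD array at 0.0548. The mean of the 5 muscle markers was 0.0113 on HC replicate 4, within the other HC arrays (-0.0214 to 0.0528), and 0.314 on SD replicate 4, above the other SD arrays (0.0297 to 0.137), and its part in these values was not tested. Cox7a2l, a supercomplex assembly factor, was highest on HCR replicate 2 at 0.422, with the next HCR array at 0.254. It was lowest on SD replicate 2, at -0.0133, with the next SD array at 0.312. Neither gene was called in any comparison.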

How the results depend on the processing

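None of the members and listed pathway genes called in the main setting changed direction under any alternative run. Other called genes were not followed. Medians have no call, and the member median changed sign in HC against SD with no background subtraction (-0.00154) and in HCR against SD under the settings given below and without HCR replicate 3 (0.00174). Of 1300 alternative values of the 39 counts and medians, 155 moved. Ndufa7 kept its HC against SD call in 30 of 34 alternatives (0.153 to 0.636) and Ndufs1 in 26 of 34 (0.322 to 0.729). Ndufa3 kept its HCR against HC call in 22 of 33 (-0.454 to -0.226) and Ndufa7 in 12 of 33 (-0.376 to -0.107). Some alternatives could not change a member's difference: normalisation of intensity between arrays, the filter settings and arrays left out of the group not compared. The tallies of kept calls and of moved values therefore do not measure how firm a result is. The cause of the changes below was not tested. All members were well above background on the 14 arrays. Counts of members wholly above or below are given without the share of all genes, which was not computed for the alternatives. Counts of called members and pathway genes below also lack that setting's share of all genes called, apart from median centring in HC against SD. Settings can differ in how many genes of any kind they call, so these counts are no result about the members. Smaller groups lie wholly apart more often by order alone, so counts with arrays left out or within 1 day cannot be set against the main counts.

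Median centring gave 17 members called higher in HC against SD, 21.8% beside 18.2% of the 9007 genes of like intensity. There it gave 3 negative differences, and medians of 0.367 over all members, 0.385 (complex I), 0.417 (III), 0.304 (IV), 0.387 (V) and 0.166 (assembly or other). It gave, in HCR against HC, 0 members and 0 other pathway genes called lower, 22 members with HCR wholly below, and medians of -0.282, -0.334 (I), -0.319 (III), -0.212 (IV) and -0.261 (V). The 9007 genes of like intensity had a median of -0.0909 there. In HCR against SD median centring gave 22 negative differences, 0 members wholly below, and medians of 0.0822, 0.0903 (I), 0.0605 (III), 0.0601 (IV) and 0.0849 (V). Those 9007 genes had a median of 0.114 in HCR against SD. Cy3 alone gave 15 negative differences in HC against SD, 4 other pathway genes called higher, and medians of 0.105, 0.214 (III) and 0.0872 (IV). In HCR against HC it gave 1 member and 0 other pathway genes called lower, and medians of -0.193 and -0.121 (IV), and in HCR against SD 1 member was wholly above and 1 wholly below. The deposited scores (71 members, multiplied by 2.193, the mean SD of the log2 processed Cy3 signal) gave 0 members and 0 other pathway genes called higher in HC against SD, 1 member wholly above and a median of 0.207 (assembly or other). They gave, in HCR against HC, 0 members and 0 other pathway genes called lower, 1 member wholly below, and medians of -0.22, -0.281 (III) and -0.177 (IV), and in HCR against SD 0 members wholly below and medians of -0.147, -0.178 (I), -0.134 (IV) and -0.196 (V).

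With no background subtraction 2 members were called lower in HC against SD, 2 lay wholly above and 2 wholly below, and in HCR against HC 4 members and 4 other pathway genes were called lower. An offset of 10 gave 1 member called lower in HCR against HC and 2 wholly below in HCR against SD. Processed signals gave 0 members called lower in HCR against HC, and the mean of all probes gave 1. Array weights gave 8 members called higher and 2 lower in HC against SD, with 2 other pathway genes lower, 5 lower in HCR against HC and 1 higher in HCR against SD. Array brightness as a covariate gave 1 member and 4 other pathway genes called higher in HC against SD and 1 member called lower in HCR against HC. Fitting only the groups compared gave 4 members called higher in HC against SD, and 4 members and 8 other pathway genes lower in HCR against HC. Extraction day or slide series as a block gave 0 members called lower in HCR against HC. Within day 1, which held 2 HC, 3 SD and 4 HCR arrays, 0 members were called higher and 1 lower in HC against SD. There 20 members lay wholly above and 12 wholly below, and 4 other pathway genes were higher. Within day 1, 0 members and 0 other pathway genes were called lower in HCR against HC, with 19 members wholly below, and 1 member was called lower in HCR against SD, with 1 wholly above and 14 wholly below. Within day 2, 0 members and 0 other pathway genes were called higher in HC against SD and 2 members lay wholly below.

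The replicate numbers were not used as pairs in the model. Same-numbered deviations correlated at -0.185 to 0.3. Differently numbered arrays were not correlated, so these values cannot decide whether the arrays were paired. With the replicate block 0 members and 1 other pathway gene were called lower in HCR against HC. The member medians were then 0.0313, -0.118 and -0.0603 in the 3 comparisons.

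Without SD replicate 5 and HCR replicate 3, 10 members were called higher in HC against SD, 8 lay wholly above and 1 wholly below, and 1 other pathway gene was lower. For HCR against HC, 0 were called lower, 1 lay wholly above and the complex IV median was -0.00438. In HCR against SD 7 lay wholly above and 8 wholly below, 4 other pathway genes were higher, and medians were 0.0188, -0.00142 (III) and 0.0193 (IV). Without SD replicate 2 and HCR replicate 3, a choice made after seeing the data, 5 members were called higher and 3 lower in HC against SD, with 8 wholly above and 3 wholly below. For HCR against HC, 1 member and 6 other pathway genes were called lower, 1 member lay wholly above and the complex IV median was -0.00438. In HCR against SD 6 members were called lower, 3 lay wholly above and 10 wholly below, 1 other pathway gene was higher and the complex III median was 0.0235.

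With single arrays left out, HC against SD gave 1 to 6 members called higher and 0 to 3 lower, 5 to 8 wholly above and 0 to 3 wholly below, and 0 to 1 other pathway genes lower. HCR against HC gave 0 to 7 members called lower (0 without HC replicate 2, HCR replicate 1 or HCR replicate 3, and 7 without SD replicate 2), 0 to 1 wholly above, 7 to 21 wholly below, 1 to 8 other pathway genes lower and a complex IV median of -0.0959 to -0.00438. HCR against SD gave 0 to 4 members called lower (4 without SD replicate 2), 0 to 2 wholly above, 4 to 11 wholly below, 0 to 1 other pathway genes higher and a complex III median of -0.177 to -0.00819.

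Among all called genes, 56.9% were higher in HC against SD, beside 79% with median centring, 78.2% with Cy3 alone and 80.1% with the scores. In HCR against HC 58.6% were higher, beside 25.8%, 24.4% and 31.9% in that order.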
